A study of Mus musculus with 6 samples.

Results

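The genes described here are 35 components of the endoplasmic reticulum (ER) folding machinery and of the unfolded protein response, taken by name from the 27179 Entrez identifiers of the deposited count table. They were chosen by function and not by their values, although results from these data were already known when the set was drawn up. All 35 were found and all 35 passed the filter on low counts, so no member was lost. The cells were mouse embryonic stem cells of the ES-E14TG2a background, kept on gelatin in 2i + Lif medium, in which CHIR99021 and PD0325901 inhibit GSK3 and MEK. Both groups carried FLAG-tagged Trim71, which binds RNA through its NHL domain: the WT group the wild-type protein and the R783H group the R783H form, with 3 poly(A)-selected RNA-seq libraries each, lettered A, B and C. Whether a letter marks a clone, a culture or a library preparation is not given in the sources used here, so every p-value measures the spread between these libraries, which may be technical.

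Proteins that enter the ER are threaded through the Sec61 channel, folded by chaperones such as BiP (Hspa5) and by disulfide isomerases, and checked by the calnexin and calreticulin lectins. Chains that fail to fold are drawn back to the cytosol and degraded, a route called ER-associated degradation. When unfolded chains build up, the sensors Ire1 (Ern1), Perk (Eif2ak3) and Atf6 raise transcription of chaperone and degradation genes, in part through Xbp1, whose mRNA Ire1 splices.

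Total counts ran from 20894277 to 29079670 per library with all 3 R783H totals above the 3 WT totals. Trim71 (Entrez 636931, chromosome 9) stood at 152, 129 and 150.5 CPM (counts scaled to a common library total) in R783H A, B and C and at 131, 131 and 159 CPM in WT A, B and C. The groups overlapped, with a log2 fold change of 0.03 (SE 0.08, edgeR adjusted p = 0.743); the R783H change itself cannot be read from counts per gene. Markers of embryonic stem cells summed to 7281 to 7448 CPM in R783H and 7499 to 7560 CPM in WT, with 3 of 10 called higher and 4 lower. Extraembryonic endoderm markers, a lineage rich in secretory proteins, summed to 450 to 474 CPM in R783H and 347 to 357 CPM in WT over 16 genes, most of it from Lama1 and Sparc. Of the 11 tested, 3 were called higher and 4 lower; Gata6 averaged 0.476 CPM or less in each group and Afp was listed at 0 in all 6 libraries. Fibroblast markers summed to 48.6 to 54.8 CPM in R783H and 39.8 to 40.6 CPM in WT, early neural markers to 84.7 to 92.0 and 119 to 123 CPM, and mesoderm markers to 38.6 to 43.1 and 66.3 to 70.1 CPM. Calls within these lists were 3 higher and 1 lower of 6 tested fibroblast markers, 2 higher (Sox1 and Map2) and 3 lower of 6 early neural markers, and 6 lower of 7 mesoderm markers in edgeR. Among the lower neural markers, Zic1 had overlapping groups on 4 to 11 counts per library, so its call is uncertain. Beside these marker calls, 33.5% of all tested genes were called higher and 30.9% lower. Most of the neural sum was Tubb3, at 48.8 CPM in R783H against 85.0 CPM in WT. The part of these lineages in the changes of the ER genes was not tested. In bulk libraries, fewer cells that hold an mRNA and less of that mRNA in each cell cannot be told apart.

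Most lumenal chaperones (7 of 9) and all 4 disulfide isomerases were called lower in R783H, beside 30.9% of all tested genes. The sensor genes Ern1 and Eif2ak3 and 4 of 9 degradation genes (44.4%) were called higher, beside 33.5% of all tested genes. Lists this short cannot set these counts of rises apart from that share. Of the degradation genes, Sel1l lost its call with an offset for transcript length and GC content. Of the 35 genes, 16 were called lower and 10 higher at an adjusted p under 0.05 (quasi-likelihood test of edgeR, adjusted over 14199 tested genes). These 26 calls are 74.3% of the set, beside 64.5% of all tested genes, so the number of calls is not in itself a result about these genes. In the lower direction the share was 45.7%, beside 30.9% of all tested genes, and in the higher direction 28.6%, beside 33.5%. For 28 of the 35, the R783H libraries lay all above or all below every WT library in CPM, beside 68.1% of all tested genes. The median log2 fold change was -0.03 and that of all tested genes 0.03, with falls and rises side by side in this set. Scaled by library size alone, the split became 15 lower and 15 higher, since every fold change moved up by about the same step. Changes were modest: 6 of the 35 were called at 1.5-fold or more, beside 24.6% of all tested genes, and 0 at 2-fold or more.

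By role, the counts differed in direction. Lumenal chaperones and co-chaperones had 7 of 9 called lower and 1 higher, with a median log2 fold change of -0.42, and the disulfide isomerases had 4 of 4 lower, with a median of -0.46. Sensors and Xbp1 had 2 of 4 called higher and 0 lower by edgeR, DESeq2 and limma-voom; 2 of 4 had an unadjusted edgeR p under 0.05, both higher. The degradation genes had 4 of 9 higher and 1 lower, beside 33.5% and 30.9% of all tested genes, with a median of 0.09. Translocation genes were mixed, with 2 of 6 higher and 3 lower. The plot of fold changes by role shows this order.

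**Figure D1:**
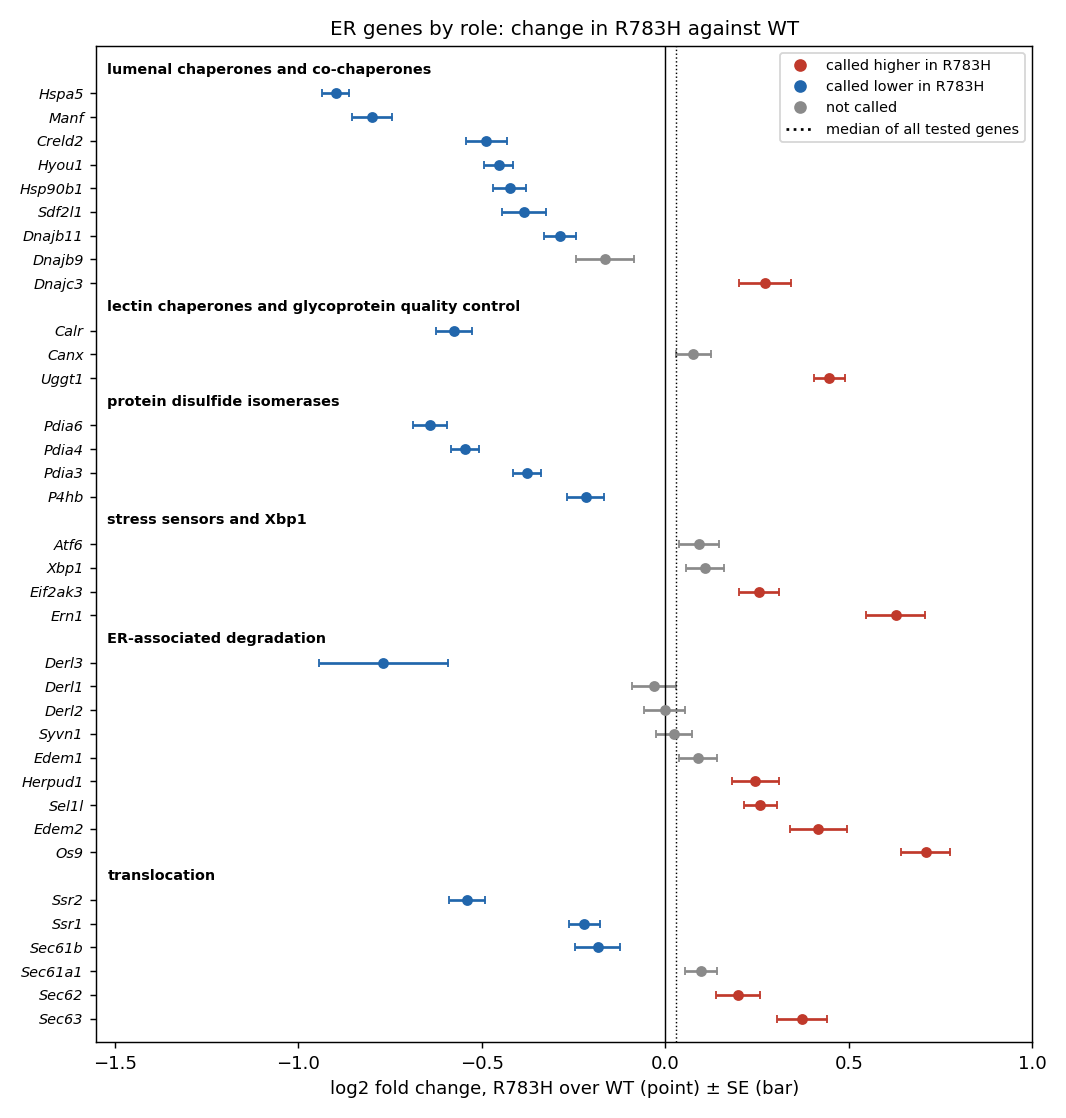
Log2 fold change of R783H over WT for each of the 35 ER genes (points) with its standard error (bars), grouped by role and coloured by call; the dotted line is the median of all tested genes, 0.03. Most lumenal chaperones and all 4 disulfide isomerases lie to the left, down to -0.90 for Hspa5, with Dnajc3 to the right at 0.27, and Os9 and Ern1 lie furthest to the right, at 0.71 and 0.63.

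Summed levels moved with the most abundant genes. The lumenal chaperones together held 1487 to 1522 CPM in the R783H libraries and 2192 to 2213 CPM in the WT libraries. For the disulfide isomerases the sums were 1421 to 1509 CPM in R783H and 1925 to 1937 CPM in WT. Sensors and Xbp1 went the other way, at 153 to 159 CPM in R783H and 135.5 to 137 CPM in WT, and so did the degradation genes, at 418 to 435 CPM and 373 to 377 CPM. Lectin chaperones and glycoprotein quality control summed to 1581 to 1600 CPM in R783H and 1748 to 1791 CPM in WT. Translocation genes summed to 1017 to 1062 CPM in R783H and 1118 to 1131 CPM in WT. None of these ranges overlapped between the groups. Taken singly, 68.1% of all tested genes did not overlap either. All 35 genes made up 0.617% of CPM in R783H and 0.754% in WT.

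**Figure D2:**
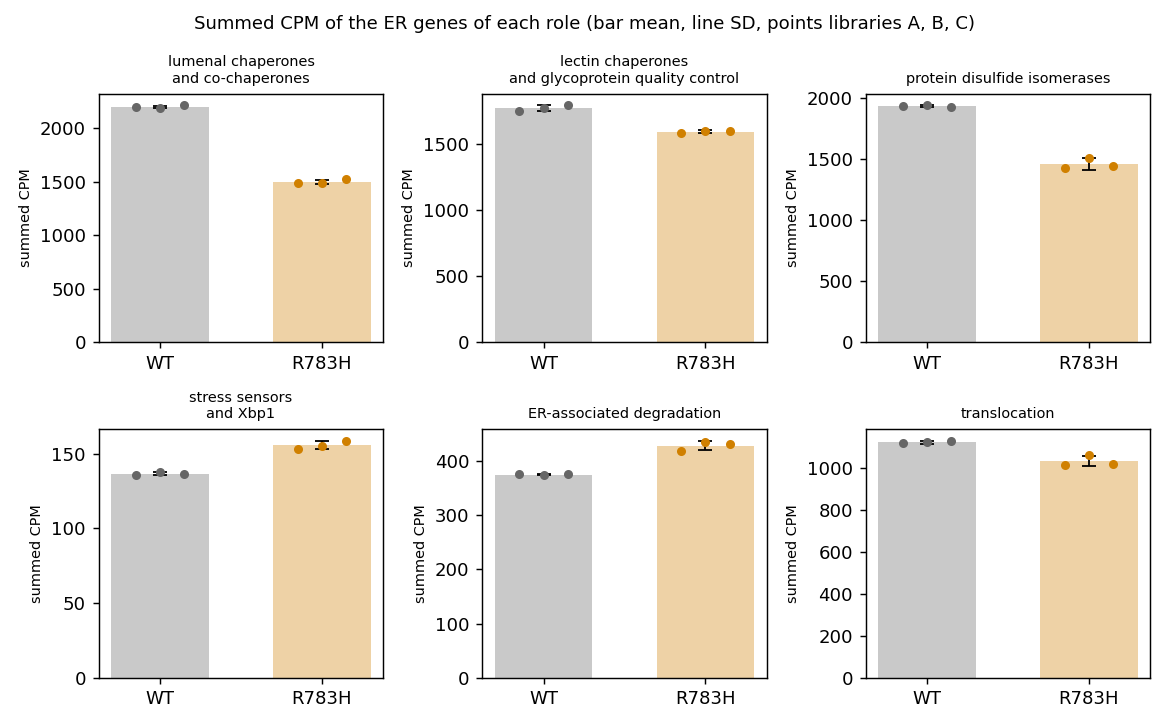
Summed CPM of the genes of each role in WT and R783H (bars, mean of 3 libraries; lines, SD; points, libraries A, B and C), each panel on its own axis from 0. The lumenal chaperones and the disulfide isomerases drop from 2199 to 1499 and from 1931 to 1456 CPM, while the sensor and degradation panels rise from 136 to 156 and from 375 to 428 CPM.

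Several of these genes share a known promoter element, and it is printed here because several of the genes that fell hold it. The ER stress response element (ERSE) reads CCAAT, then 9 bases of any kind, then CCACG; NF-Y binds its CCAAT part and Atf6 its CCACG part. Promoter windows from RefSeq on GRCm38.p6, from 250 bases before to 50 bases after a start, were listed for 29 of the 35 genes, not for Hyou1, Manf, Atf6, Derl1, Sec61a1 and Ssr2. On either strand, 9 of these 29 (31.0%) held the exact ERSE letters, beside 22 of 10766 tested genes with a window (0.204%). The 22 include these 9. The element was picked as one already known in such genes, so the excess over all tested genes is not a test. The shorter form ERSE-II, which is ATTGG, 1 base of any kind and CCACG, was found in 2 of 29, Herpud1 and Dnajb11, beside 0.0836% of tested genes. The Xbp1 and Atf6 motif TGACGTGG was in 0 of 29 windows, beside 1.03% of tested genes, and the Atf4 motif TGATGCAA in 1 of 29, Herpud1, beside 0.687%. No searched motif overlapped another in a window of these genes. A match of letters is a description and not a site shown to be bound.

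Of the 9 genes with an ERSE, 6 were called lower (Hspa5, Hsp90b1, Creld2, Calr, Pdia6 and Derl3), 1 higher (Dnajc3) and 2 were not called (Canx and Syvn1). Called lower were 45.7% of all 35 genes and 30.9% of all tested genes, and called higher 28.6% and 33.5%. Of the 13 other tested genes with an ERSE, 2 were called lower and 6 higher. The stretches below run 5′ to 3′ on the gene's strand, with 20 bases on each side of the element, which is in capitals; CGTGG at its left end marks the opposite strand. The 6 that fell are given first, at chr2:34772005-34772063 (+), chr10:86705513-86705676 (-), chr15:88819500-88819558 (+), chr8:84847055-84847113 (-), chr12:17266471-17266529 (+) and chr10:75893222-75893280 (+).
Hspa5: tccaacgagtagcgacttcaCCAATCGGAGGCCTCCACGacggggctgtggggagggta
Hsp90b1: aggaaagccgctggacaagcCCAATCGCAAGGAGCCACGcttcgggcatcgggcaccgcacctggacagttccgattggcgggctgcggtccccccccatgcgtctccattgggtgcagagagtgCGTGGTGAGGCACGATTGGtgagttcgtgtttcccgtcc
Creld2: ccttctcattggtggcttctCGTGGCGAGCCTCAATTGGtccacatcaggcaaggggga
Calr: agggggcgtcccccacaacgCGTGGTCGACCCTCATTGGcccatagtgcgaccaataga
Pdia6: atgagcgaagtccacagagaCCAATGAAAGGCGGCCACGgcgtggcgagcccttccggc
Derl3: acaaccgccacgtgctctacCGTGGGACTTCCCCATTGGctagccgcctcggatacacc
Those that did not fall follow, at chr11:50325780-50325838 (-), chr19:6046512-6046570 (+), chr14:118937807-118937865 (+) and, with ERSE-II, chr8:94386357-94386407 (+).
Canx: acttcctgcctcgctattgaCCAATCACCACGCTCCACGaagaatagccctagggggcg
Syvn1: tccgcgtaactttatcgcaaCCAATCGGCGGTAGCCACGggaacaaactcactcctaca
Dnajc3: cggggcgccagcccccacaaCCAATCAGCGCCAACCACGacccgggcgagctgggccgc
Herpud1: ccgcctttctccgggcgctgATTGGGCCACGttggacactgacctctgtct
All 10 stretches lie before the start site; the last base of the element is 26 bases before it in Syvn1 and 194 bases before it for the farther of the 2 elements of Hsp90b1. The ERSE-II match of Dnajb11, which was called lower, lies after the start site and is not printed. Genes with the same letters thus stood in all 3 classes of call.

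Hspa5 encodes BiP, the main Hsp70 chaperone of the ER and the protein that holds the sensors inactive. It is Entrez 14828 on chromosome 2. Its level was 339, 343 and 346 CPM in R783H A, B and C and 639, 638 and 639 CPM in WT A, B and C. The groups stood far apart, and the spread within each was under 1% of the mean. The log2 fold change was -0.90 (SE 0.04, edgeR adjusted p = 3.28e-08), which is 1.86-fold lower in R783H and the largest fall among the 35. Its size ranked 1672 of 14199 tested genes. Over the alternatives it stayed between -0.97 and -0.82.

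Manf (Entrez 74840, chromosome 9) encodes a small ER protein that associates with BiP and is secreted under stress. R783H A, B and C held 81.2, 91.9 and 84.3 CPM, against 154, 150.4 and 143 CPM in WT. No R783H library reached any WT library, and the log2 fold change was -0.80 (SE 0.06, edgeR adjusted p = 4.84e-07). The exons of Manf overlap those of 4930524O07Rik and Dcaf1 on the other strand, where reads cannot be assigned with certainty if strand was not used. They also overlap those of Rbm15b on the same strand over 14 nt, where use of strand would not help. Creld2 (Entrez 76737, chromosome 15), another stress-induced ER protein, had 54.7, 59.1 and 57.7 CPM in R783H and 84.1, 81.2 and 75.2 CPM in WT. It fell by 0.49 on the log2 scale (SE 0.06, edgeR adjusted p = 1.82e-05). Hyou1 (Entrez 12282, chromosome 9), the Hsp110-type partner that exchanges nucleotide on BiP, had 256, 269 and 257 CPM in R783H and 361, 353 and 358 CPM in WT. The log2 fold change was -0.45 (SE 0.04, edgeR adjusted p = 2.75e-06).

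Of the remaining lumenal chaperones, Hsp90b1 encodes Grp94, the Hsp90 of the ER. In WT it averaged 780.03 ± 20.1 CPM and in R783H 582 ± 25.4 CPM (SD, n = 3), a change of -0.42 on the log2 scale (SE 0.04). Sdf2l1 and Dnajb11, which work with BiP, fell by 0.38 (SE 0.06) and by 0.29 (SE 0.04) on the same scale. Adjusted p values of these 3 genes ran from 9.91e-06 to 1.87e-04 in edgeR, and their groups did not overlap. Exons of Hsp90b1 overlap 1810014B01Rik on the other strand and 2 genes on its own strand.

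The J-domain co-chaperones, which stimulate BiP's ATPase, did not move as a block. Dnajb9 (ERdj4) had 12.01, 12.9 and 11.5 CPM in R783H and 12.7, 14.1 and 13.9 CPM in WT. R783H B lay above WT A, so the groups overlapped, and the log2 fold change of -0.16 (SE 0.08) was not called (edgeR adjusted p = 0.0935). Without R783H B it was -0.23 and called. Dnajc3 (p58IPK), which also restrains Perk, had 43.9, 36.5 and 41.9 CPM in R783H and 33.2, 34.3 and 33.7 CPM in WT. R783H B was the lowest of its group but still above every WT library. Dnajc3 rose by 0.27 (SE 0.07, edgeR adjusted p = 0.00541), a call lost with an offset for transcript length and GC content (0.10).

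All 4 disulfide isomerases fell. These enzymes form and reshuffle disulfide bonds, and Pdia3 acts on glycoproteins held by calnexin and calreticulin. Pdia6 (Entrez 71853, chromosome 12) had 262, 288 and 272 CPM in R783H A, B and C and 432, 433 and 418 CPM in WT; the log2 fold change was -0.64 (SE 0.05, edgeR adjusted p = 5.69e-07). Pdia4 (Entrez 12304, chromosome 6) had 211, 213 and 205 CPM in R783H against 305, 304 and 310.3 CPM in WT, a change of -0.55 (SE 0.04, edgeR adjusted p = 6.64e-07). Both groups were tight, and neither gene overlapped between them. In WT, Pdia3 averaged 647 ± 12.4 CPM, against 499 ± 2.71 CPM in R783H (SD, n = 3), a log2 change of -0.38 (SE 0.04, edgeR adjusted p = 7.33e-06). P4hb, the classical protein disulfide isomerase, had the smallest fall, at -0.22 (SE 0.05, edgeR adjusted p = 0.00307), with 511 CPM in R783H B against 451 and 460 CPM in A and C and at least 541 CPM in WT. Short stretches of Pdia3, Pdia4 and Pdia6 exons (14 to 50 nt) are shared with other annotated genes.

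The lectin chaperones went different ways. Calreticulin (Calr, Entrez 12317, chromosome 8), which is soluble in the lumen, had 566, 626 and 560.1 CPM in R783H A, B and C and 884, 872 and 852 CPM in WT; the log2 fold change was -0.57 (SE 0.05, edgeR adjusted p = 1.99e-06). Calnexin (Canx, Entrez 12330, chromosome 11), its membrane-bound relative, had 757, 718 and 772 CPM in R783H and 680.5, 702 and 749 CPM in WT. Calnexin values overlapped and the log2 fold change of 0.08 (SE 0.05, edgeR adjusted p = 0.180) was not called; scaling by library size alone gave 0.16, which was called, and the length and GC offset turned it to -0.04. The ratio of Calr to Canx CPM, chosen after their values were seen, was 0.748, 0.871 and 0.725 in R783H and 1.30, 1.24 and 1.14 in WT. The ratio differed by -0.65 on the log2 scale without overlap. A two-sided exact permutation test over the libraries gave p = 0.10, the smallest that 3 against 3 allows. Since the pair was picked from the same values, this p-value cannot count as evidence. Uggt1 (Entrez 320011, chromosome 1), which tags misfolded glycoproteins with glucose for another round of folding, had 258, 256 and 261 CPM in R783H and 183, 195 and 191 CPM in WT. It rose by 0.45 (SE 0.04, edgeR adjusted p = 3.61e-06), and by 0.12, still called, with the length and GC offset; its longest transcript has 9033 nt.

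Among the sensors and Xbp1, Ern1 and Eif2ak3 rose, and Atf6 and Xbp1 were not called. Ern1 (Entrez 78943, chromosome 11), which encodes the kinase and RNase Ire1, had 15.8, 14.1 and 14.9 CPM in R783H A, B and C and 9.11, 9.74 and 10.1 CPM in WT. Every R783H library was above every WT library, and the log2 fold change was 0.63 (SE 0.08, edgeR adjusted p = 4.36e-05), or 0.38, also called, with the length and GC offset. Eif2ak3 (Entrez 13666, chromosome 6), which encodes the eIF2-alpha kinase Perk, had 43.98, 43.7 and 45.1 CPM in R783H and 34.9, 38.4 and 37.9 CPM in WT. It rose by 0.26 (SE 0.06, edgeR adjusted p = 0.00187), or by 0.14, also called, with that offset. Its exons overlap those of Gm43292 on the other strand over 485 nt.

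Atf6 (Entrez 226641, chromosome 1), the sensor that is cut in the Golgi to release a transcription factor, had 35.3, 35.03 and 37.3 CPM in R783H and 32.8, 34.4 and 33.7 CPM in WT. The groups did not overlap but lay close, and 0.09 (SE 0.05, edgeR adjusted p = 0.161) was not called. Its direction depended on the setting: library size scaling gave 0.17 and the length and GC offset -0.18, each with a call. Xbp1 (Entrez 22433, chromosome 11), the transcription factor whose mRNA Ire1 splices, had 58.1, 62.0 and 61.2 CPM in R783H and 58.8, 54.9 and 54.6 CPM in WT. R783H A lay below WT A, and 0.11 (SE 0.05, edgeR adjusted p = 0.0893) was not called. Library size scaling and the length and GC offset each gave a call, at 0.19 and 0.14. Counts per gene do not separate spliced from unspliced Xbp1, so the activity of Ire1 was not measured.

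Within ER-associated degradation, Os9, Edem2, Sel1l and Herpud1 rose, Derl3 fell, and Edem1, Syvn1, Derl1 and Derl2 were not called. Os9 (Entrez 216440, chromosome 10), a lectin that hands trimmed glycoproteins to the degradation complex, had 48.7, 53.1 and 49.9 CPM in R783H A, B and C and 32.5, 32.3 and 27.9 CPM in WT. The log2 fold change of 0.71 (SE 0.07, edgeR adjusted p = 4.67e-06) was the largest rise among the 35. Edem2, a mannosidase that starts this trimming, rose by 0.42 (SE 0.08, edgeR adjusted p = 6.14e-04), from 26.9 ± 0.962 to 35.9 ± 3.70 CPM (SD, n = 3). Its relative Edem1 had 93.2, 88.3 and 94.3 CPM in R783H and 83.4, 84.4 and 91.5 CPM in WT. Edem1 values overlapped, with 0.09 (SE 0.05, edgeR adjusted p = 0.153); library size scaling gave 0.17 and the length and GC offset -0.13, called in opposite directions.

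Sel1l, the adaptor of the ubiquitin ligase complex, had 83.5, 86.6 and 84.6 CPM in R783H and 71.6, 70.2 and 71.0 CPM in WT. It rose by 0.26 (SE 0.04, edgeR adjusted p = 3.50e-04), but with the length and GC offset the value was 0.03 and not called. Syvn1, the ligase Hrd1 itself, had 45.1, 47.0 and 45.0 CPM in R783H and 45.3, 45.3 and 44.3 CPM in WT, with a log2 fold change of 0.02 (SE 0.05, edgeR adjusted p = 0.691). Its values were interleaved between the groups, and 91 nt of its exons are shared with Mrpl49 on the other strand. Herpud1 (Entrez 64209, chromosome 8), which recruits the ligase complex and is a standard stress marker, rose by 0.25 (SE 0.06, edgeR adjusted p = 0.00556), from 32.9 ± 2.54 to 38.9 ± 0.788 CPM (SD, n = 3). The ratio of Hspa5 to Herpud1 CPM, chosen after seeing the values, was 8.62, 8.70 and 9.09 in R783H and 18.0, 21.0 and 19.5 in WT. The exact permutation test gave p = 0.10, again the smallest possible. This pair too was picked from the values tested, so that p-value cannot count as evidence.

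The derlins help form the channel through which chains leave the ER. Derl1 had 25.3, 27.6 and 26.8 CPM in R783H and 27.3, 27.2 and 26.9 CPM in WT, and Derl2 had 49.3, 52.1 and 55.8 CPM against 51.3, 53.0 and 53.0 CPM. Both overlapped, at log2 fold changes of -0.03 (SE 0.06) and -0.00139 (SE 0.06), and neither was called (edgeR adjusted p of 0.668 and 0.985). Library size scaling gave both a positive sign without a call. Derl3 was the lowest member, with 1.36, 1.48 and 1.52 CPM in R783H and 2.67, 2.73 and 2.02 CPM in WT, on 41 to 67 counts per library. Derl3 fell by 0.77 on the log2 scale (SE 0.18, edgeR adjusted p = 0.00274), with the widest standard error of the set.

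Translocation genes split between subunits. Ssr2 (Entrez 66256, chromosome 3), a subunit of the translocon-associated protein complex, had 239, 266 and 237 CPM in R783H A, B and C and 363, 362 and 353 CPM in WT; the log2 fold change was -0.54 (SE 0.05, edgeR adjusted p = 3.61e-06). Ssr1, of the same complex, averaged 172 ± 5.85 CPM in WT against 148 ± 1.21 CPM in R783H (SD, n = 3), a change of -0.22 (SE 0.04, edgeR adjusted p = 8.83e-04). With the length and GC offset Ssr1 stood at -0.55, its annotated longest transcript being 9333 nt. Sec61b, the small beta subunit of the channel, had 54.2, 61.4 and 62.7 CPM in R783H and 69.8, 66.2 and 66.6 CPM in WT. It fell by 0.18 (SE 0.06, edgeR adjusted p = 0.0197), and the call was lost with library size scaling (-0.10), with the length and GC offset (-0.04), without R783H A (-0.14) and without WT A (-0.16). Gm10320 holds a stretch of at least 98% identity to Sec61b, so some of its reads may be uncertain.

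Sec61a1, the pore of the channel, had 401, 430 and 396 CPM in R783H and 385, 376 and 386 CPM in WT. Its groups did not overlap, and 0.10 (SE 0.04, edgeR adjusted p = 0.0697) was not called; library size scaling and the offset each gave a call, at 0.18 and 0.09. Sec62, which assists entry of finished chains, had 113, 104 and 116 CPM in R783H and 90.4, 96.8 and 103 CPM in WT. R783H B stood just above WT C, and the rise of 0.20 (SE 0.06, edgeR adjusted p = 0.0131) was lost without R783H A (0.17), R783H C (0.15) or WT A (0.15). Sec63, the membrane J-protein that recruits BiP to the channel, rose from 45.8 ± 2.01 to 59.3 ± 5.17 CPM (SD, n = 3). The log2 fold change was 0.37 (SE 0.07, edgeR adjusted p = 5.67e-04), or 0.16 with the offset. Sec61a1, Sec62 and Sec63 share 173 to 549 nt of exon with genes on the other strand, as Ssr2 does over 239 nt.

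**Figure D3:**
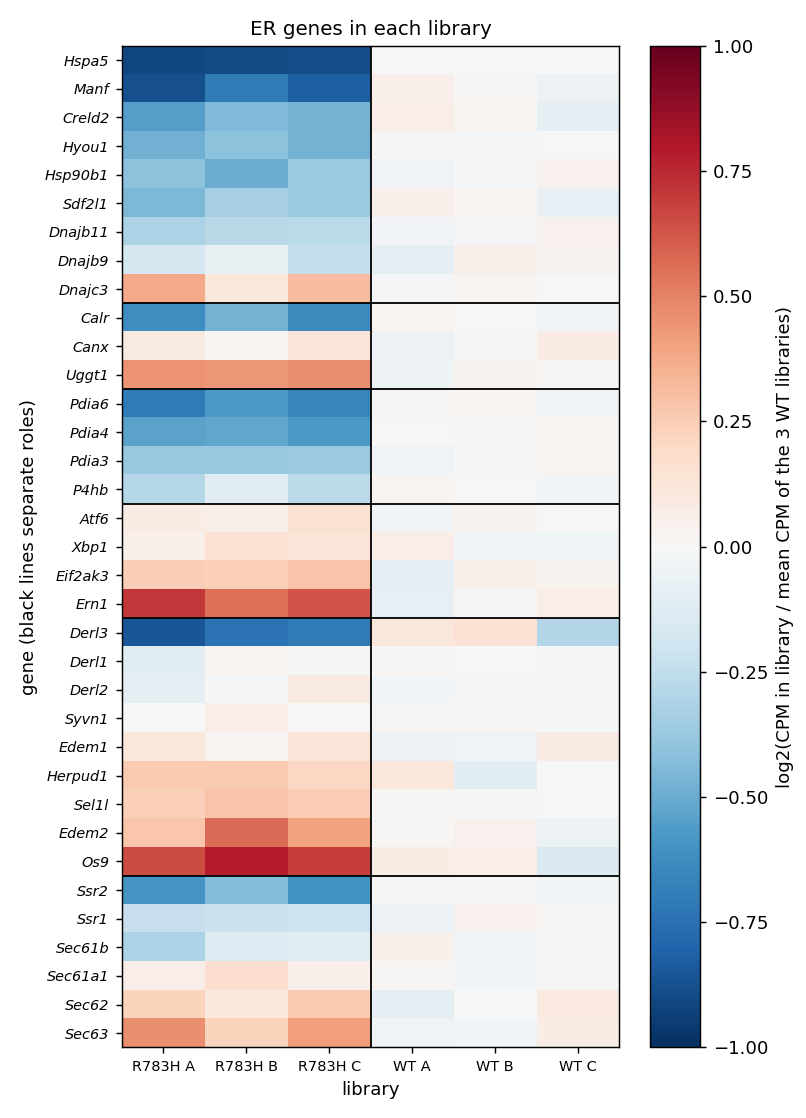
Log2 of the CPM in each library over the mean of the 3 WT libraries, for the 35 ER genes (rows, by role) and the 6 libraries (columns); blue is below and red above the WT mean. The blue rows of Hspa5, Manf, Calr and Pdia6 and the red rows of Os9 and Ern1 run through all 3 R783H libraries, while R783H B is paler in rows such as Calr, P4hb and Dnajc3.

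Levels per length placed 8 of the 16 genes called lower among the 10 most abundant, while Derl3, also called lower, was the least abundant. In CPM per kilobase of the longest annotated transcript, averaged over both groups, the order began with Calr (333), Ssr2 (255), Hsp90b1 (211), Pdia3 (207), P4hb (179), Canx (170.5), Pdia6 (161), Hspa5 (134), Sec61a1 (125) and Pdia4 (108). Of these 10 genes, 8 were called lower and 0 higher, beside 30.9% and 33.5% of all tested genes at any level. Canx and Sec61a1 were not called. Of the other 25, from Sec61b (87.8) down to Ern1 (1.77) and Derl3 (1.49), 8 were lower, 10 higher and 7 not called. Every gene of the set called higher was therefore at under 30 CPM per kilobase, while the uncalled Canx and Sec61a1 had positive fold changes above that level. Division by length lowers the place of long transcripts, so this order is tied to length. Uggt1, at 259 CPM in R783H, stood at 28.6 CPM per kilobase over its 9033 nt. In WT, Hspa5 stood at 174 CPM per kilobase, above Canx at 166, and in R783H at 93.3, below Canx at 175.

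Direction also followed transcript length. Of the 18 genes with a longest transcript of up to 3172 nt, 12 were lower and 3 higher, with a median log2 fold change of -0.33. Of the 17 longer genes, 4 were lower and 7 higher, with a median of 0.09. Among all tested genes of any length, 30.9% were called lower and 33.5% higher, and shares by length were not counted. Spearman's rho between length and fold change was 0.487 over the 35 genes and 0.243 over the 13758 tested genes with a length; genes in the same libraries are not independent, so both only describe these libraries. With an offset for length and GC content, fitted per library, 17 were called lower and 10 higher, but not the same genes: Dnajc3, Sel1l and Sec61b lost their calls, Xbp1 and Sec61a1 became called higher, and Atf6 and Edem1 became called lower. It shortened the rises of long transcripts and left Hspa5, Manf, Calr, Pdia6, Pdia4 and Os9 within 0.07 of their values.

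**Figure D4:**
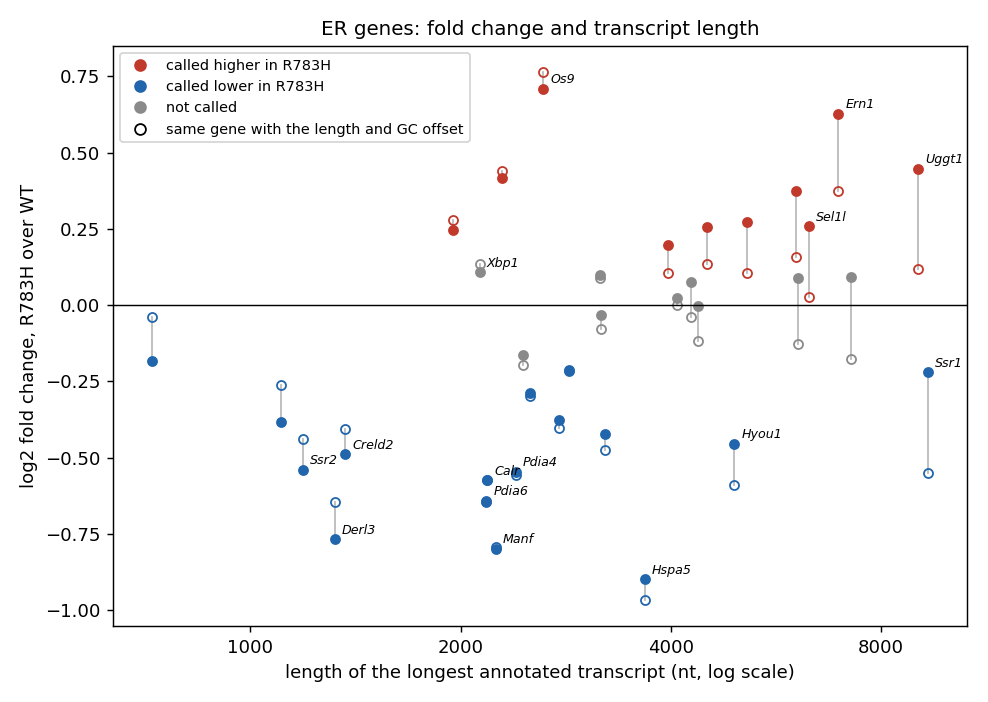
Log2 fold change of R783H over WT against the length of the longest annotated transcript (log axis) for the 35 ER genes, as reported (filled) and with the length and GC offset (open), coloured by call. Hspa5 moves from -0.90 to -0.97 and Uggt1 from 0.45 to 0.12.

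The rest of the ER machinery was read from lists of 131 further genes, of which 128 were tested. Of these, 46 were called higher and 44 lower, that is 35.9% and 34.4%, beside 33.5% and 30.9% of all tested genes, with a median log2 fold change of 0.04. The most one-sided of the 6 lists was targeting and translocation, with 13 of 19 lower and 2 higher and a median of -0.27. Its 3 named genes were picked as the called genes with the largest changes. Srprb, the beta subunit of the signal recognition particle (SRP) receptor, fell from 82.6 ± 2.30 to 56.3 ± 1.80 CPM (-0.55, SE 0.05). Srp14, an SRP protein, fell from 77.8 ± 1.78 to 54.9 ± 4.05 CPM (-0.50, SE 0.06). Tram2 rose from 7.56 ± 0.168 to 13.0 ± 1.04 CPM (0.78, SE 0.09).

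Of the disulfide isomerases and oxidases outside the set, 9 of 18 were called higher, 3 lower and 6 not. Ero1a, the oxidase that recharges the isomerases, had 59.1, 58.2 and 66.4 CPM in R783H and 37.9, 35.5 and 39.5 CPM in WT (log2 fold change 0.70, SE 0.07). Qsox2, a sulfhydryl oxidase, rose by 0.97 (SE 0.06), and P4ha1, which pairs with P4hb in collagen prolyl hydroxylase, by 0.87 (SE 0.06). The catalytic partner P4ha1 thus rose while P4hb fell. Near the shares of all tested genes, 8 of 23 other chaperones and prolyl isomerases (34.8%) were called in each direction. Among them Fkbp10, a prolyl isomerase that acts on collagen, went from 7.14 ± 0.318 to 1.68 ± 0.190 CPM (-2.08, SE 0.13). Fkbp11 went from 21.5 ± 0.822 to 11.6 ± 0.153 CPM (-0.89, SE 0.07), whereas Fkbp7 rose by 1.13 (SE 0.21) at under 2.1 CPM in every library.

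In N-glycosylation and glucose trimming 8 of 19 were higher (42.1%) and 5 lower (26.3%), beside 33.5% and 30.9% of all tested genes. Calr4, a calreticulin paralog, had 12.5, 12.02 and 12.3 CPM in R783H and 2.28, 2.12 and 1.59 CPM in WT; the log2 fold change was 2.62 (SE 0.12). Its direction was opposite to that of Calr. Calr3 rose by 0.76 (SE 0.18) at under 3.1 CPM, and Ost4, a small subunit of oligosaccharyltransferase, fell by 0.66 (SE 0.05). Other degradation genes had 9 of 27 (33.3%) in each direction, near the shares of all tested genes. Erlec1, the lectin that works beside Os9, rose by 0.69 (SE 0.07), Vcp, the ATPase that pulls chains from the membrane, fell by 0.45 (SE 0.05) and the ubiquitin-conjugating enzyme Ube2j2 fell by 0.60 (SE 0.06).

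Further stress signalling genes had 10 of 22 higher (45.5%) and 6 lower (27.3%), beside 33.5% and 30.9% of all tested genes. Their median was 0.22. Ddit3 (Chop), a transcription factor of prolonged stress, had 10.7, 10.7 and 10.97 CPM in R783H and 5.94, 6.89 and 5.91 CPM in WT; the log2 fold change was 0.78 (SE 0.09). Chac1, a glutathione-degrading enzyme induced by Atf4, rose by 0.83 (SE 0.09), and Creb3l2, an ER-anchored transcription factor, rose by 1.07 (SE 0.08). Adjusted p values of the 18 further genes named from these lists ran from 5.33e-08 to 0.00322 in edgeR. None of the 18 overlapped between the groups, beside 68.1% of all tested genes that did not. The 18 were picked from these data as called genes with the largest changes, so both follow from the choice.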

How the data were processed

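Poly(A)-selected RNA from 6 libraries was compared, 3 R783H and 3 WT, assigned by their titles. The authors deposited raw read counts per Entrez gene, per the file headers from 1 alignment file per library; 0 columns were left unassigned. CASAVA 1.4, HISAT2, SAMtools and mm10 are named in the submitters' processing notes; the counting tool, annotation and use of strand are not given in the sources used here. Symbols came from a RefSeq table of GRCm38.p6, which matched 25275 of 27179 identifiers and all 35 genes, and transcript lengths from GENCODE M21 (longest transcript per gene).

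Tests ran in R 4.3.3 with edgeR 4.0.16; alternatives used DESeq2 1.42.0 and limma 3.58.1. The filter on low counts was filterByExpr (minimum count 10, minimum total 15), libraries were scaled by TMM, and R783H was tested against WT with edgeR's quasi-likelihood test, group as the single term, Benjamini-Hochberg adjustment over 14199 genes. CPM uses TMM-scaled library sizes; 3 counts are 0.0998 to 0.149 CPM. SE is the log2 fold change divided by the square root of F. Steps were tested on simulated data. No molecular identifiers are named in the sources used here, so counting error alone understates the uncertainty.

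The genes, lists, tests and alternatives were chosen with earlier results of these data known. Named by rule were all 35 genes (each library's value for Trim71, Hspa5, Xbp1, the sensors, the 12 largest called changes, and genes that overlap or turn under an alternative) and up to 3 called genes per further list with the largest changes, averaging at least 50 counts in the higher group.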

Additional observations from a re-analysis of the deposited data

How the results depend on the processing

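The counts of ER genes called (26 in all, 16 lower, 10 higher) stayed within 1.5 times under each alternative: RLE factors, library size alone, at least 1 count in any library, at least 10 counts in every library, DESeq2, limma-voom, the length and GC offset, the replicate block and leaving out each library. Of the 26 called genes, 22 kept call and direction under every alternative; the exceptions were Dnajc3, Sel1l, Sec61b and Sec62. The median log2 fold change of the 35 genes, -0.03, was -0.0522 with RLE factors and with DESeq2, 0.0504 with library size alone, -0.13 with the length and GC offset, and -0.0824 to -0.00988 with each library left out, lowest without R783H B. The cause was not tested, except that library size scaling raised the median of all tested genes from 0.03 to 0.11. For the further ER genes, library size alone gave 57 higher and 32 lower in place of 46 and 44.

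Signs turned with the offset for Canx (-0.0389), Atf6 (-0.18), Syvn1 (-8.94e-04), Edem1 (-0.13) and Trim71 (-0.27), and with library size alone for Derl1 (0.0504) and Derl2 (0.0799). Derl2 also turned at 1 count in any library (0.00352) and at 10 counts in every library (0.00567). With each library left out, Derl2 ran from -0.0592 to 0.0266, Syvn1 from -0.0199 to 0.0286 and Trim71 from -0.0219 to 0.13.

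Same-lettered libraries of the 2 groups did not deviate together (Pearson r -0.07, 0.00682 and 0.09 for A, B and C across 14199 genes), so the letters were not taken as pairs. With the replicate block 26 ER genes were called, 16 lower and 10 higher. The offset needs a length and covered 13758 genes. Depth was lowest for Derl3, at 41 to 67 counts per library.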

Other observations

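Besides the 9 of the 35 ER genes, 13 tested genes held the exact ERSE letters in a promoter window; Calr4 and Ero1b of these 13 are also among the further ER genes. Of these 13, 6 were called higher, 2 lower and 5 were not called (edgeR's quasi-likelihood test). Among all tested genes, 33.5% were called higher and 30.9% lower. The 13 had a median log2 fold change of 0.09, beside -0.49 for the 9, and the difference was not tested. Calr4 stood at 2.62 and Ero1b, the relative of Ero1a, at 0.09 (SE 0.14). Zfp57, a zinc finger protein of imprinted loci and the most abundant of the 13, averaged 476 CPM in WT against 461 CPM in R783H, with -0.04 (SE 0.05). Xlr3a, Xlr3b and Xlr3c, which make up 3 of the 6 called higher, are close copies of each other, so their counts are not independent. Ero1b, Zfp57 and the Xlr3 genes were chosen after their values were seen.

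R783H B lay nearest to WT of the 3 R783H libraries in 9 of the 16 ER genes that fell and in 6 of the 10 that rose, R783H C in 7 and 1, and R783H A in 0 and 3. Without R783H B, 17 ER genes were called lower and 10 higher.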
